A study of Homo sapiens with 9 samples.

Results

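The AP-1 and immediate early factors followed here are FOS, FOSB, FOSL1, FOSL2, JUN, JUNB, JUND, ATF3, EGR1 and MYC. They were taken by symbol from the table of deposited gene counts, in which these 10 genes are 10 of 28216 rows. Polyadenylated RNA was sequenced from the human prostate cancer lines PC3 and LNCaP in 9 libraries, 3 in each of 3 groups. The first group was untreated PC3, a line from a bone metastasis, grown in F12K medium with 10% fetal bovine serum. The other groups were both LNCaP clone FCG, a line from a lymph node metastasis that responds to androgen. Both LNCaP groups spent 24 h in RPMI without phenol red and with 10% charcoal-stripped serum, from which steroids have been removed. One then received 10 nM of the androgen dihydrotestosterone (DHT) for 48 h, and the other its vehicle, 0.01% ethanol, for the same time. The labels name the androgen as DHT, which is used here, although the study's main text names the synthetic androgen R1881.

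AP-1 is a dimer of basic leucine zipper proteins that pairs a JUN protein (JUN, JUNB, JUND) with a FOS protein (FOS, FOSB, FOSL1, FOSL2), another JUN or a relative such as ATF3. Several of its genes, with EGR1 and MYC, are immediate early genes, which are transcribed within minutes of a growth factor or stress signal without new protein synthesis, and many of their transcripts are short-lived. ERK phosphorylates factors such as ELK1 that bind with serum response factor at CArG boxes, and CREB and ATF proteins bind at cAMP response elements (CREs). In prostate cancer cells AP-1 has been studied both as a partner and as an antagonist of androgen signalling, and FOSL1 as a factor of mesenchymal, invasive cells.

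Between 17397706 and 25640325 reads were counted on genes per library, so that 3 counts stood for 0.118 to 0.165 CPM, the read count of a gene scaled to the size of its library. Each line carried its own markers, and KLK2, an androgen-induced kallikrein gene, was at 0 in all 3 PC3 libraries. Of the 7 LNCaP markers, 6 were called lower in PC3 against each LNCaP group, and 4 rose with DHT. They summed to 2962 to 8964 CPM in LNCaP and to 493 to 848 CPM in PC3, where HOXB13, at 465 to 808 CPM, made up most of the sum. All 7 PC3 markers were called higher in PC3. Medium, serum, treatment and line changed together between PC3 and LNCaP and cannot be told apart, and each side of that comparison is a single cell line. The labels do not say that replicates came from separate cultures, so p-values measure only the spread between these libraries. In such bulk RNA, fewer cells that express a gene and less RNA per cell cannot be told apart.

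The promoters of 8 of the 10 members were taken from the RefSeq table used (build GRCh38.p14). Those of FOSL1 and MYC are not covered here. Letter patterns that bear on signal-driven transcription were searched in the 250 bases before each start, on both strands: the AP-1 site TGACTCA, the CRE TGACGTCA with its variant TGACATCA, the shorter CRE core TGACGT, which the full CRE contains, and the E-box CACGTG. The CArG box was searched as well. The promoters of EGR1, FOS, JUN and ATF3 are shown because these genes are known for a fast response to serum or stress, and because the RNA of EGR1 and FOS was close to the limit of detection here while that of JUN and ATF3 was not. They run 5′ to 3′ and stop where the GENCODE gene begins, with the matched letters in capitals.
EGR1 (chr5:138465229-138465478, plus strand): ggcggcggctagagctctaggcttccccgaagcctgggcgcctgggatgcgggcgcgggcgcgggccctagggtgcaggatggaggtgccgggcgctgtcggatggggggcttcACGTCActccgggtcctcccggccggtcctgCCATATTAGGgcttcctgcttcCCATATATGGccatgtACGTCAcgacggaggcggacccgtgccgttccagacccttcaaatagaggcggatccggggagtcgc
FOS (chr14:75278578-75278825, plus strand): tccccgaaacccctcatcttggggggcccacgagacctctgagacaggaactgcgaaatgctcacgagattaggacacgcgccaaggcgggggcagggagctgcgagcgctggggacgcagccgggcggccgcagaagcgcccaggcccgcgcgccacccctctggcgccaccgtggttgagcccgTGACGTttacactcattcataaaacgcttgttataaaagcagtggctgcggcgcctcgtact
JUN (chr1:58784049-58784297, minus strand): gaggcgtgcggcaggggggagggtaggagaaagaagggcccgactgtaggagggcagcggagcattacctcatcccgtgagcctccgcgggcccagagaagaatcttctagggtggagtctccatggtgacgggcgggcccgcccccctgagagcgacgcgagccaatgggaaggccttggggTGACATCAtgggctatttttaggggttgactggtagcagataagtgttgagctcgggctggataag
ATF3 (chr1:212565157-212565333, plus strand): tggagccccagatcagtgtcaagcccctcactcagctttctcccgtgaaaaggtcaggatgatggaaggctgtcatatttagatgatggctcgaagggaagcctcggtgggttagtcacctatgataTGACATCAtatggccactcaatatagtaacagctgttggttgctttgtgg
The EGR1 promoter held CArG boxes that begin 105 and 83 bases before the RefSeq start, a motif found in 1.16% of the 35116 promoters searched, as well as a CRE core on each side of them. FOS, FOSB and FOSL2 each held the CRE core 64, 60 and 66 bases before the start, and 7.10% of all promoters held it. JUN and ATF3 held TGACATCA, 67 and 123 bases before their starts, against 2.37% of all promoters. JUND held the full CRE at 200 bases, a motif of 1.65% of promoters, with another CRE core at 87 bases. JUNB and a second ATF3 start, at chr1:212614768-212615017, held none of these letters. The ATF3 window shown lies at the 5′ end of the gene, which spans chr1:212565334-212620777, and starts outside these 2 windows were not searched. Which start gave the ATF3 RNA was not tested, so the letters shown need not be those of the start used in these cells. The AP-1 site (4.20% of promoters) and the E-box (6.34%) were in none of the 9 member windows. These matches describe letters and were not tested for binding.

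With DHT, ATF3 and JUNB rose, and the largest difference among the members tested was that of FOSL1 between the lines. A gene was tested if it exceeded 3 CPM in at least 3 libraries of a comparison, and called at an adjusted p under 0.05 with a fold change of at least 2 (edgeR's quasi-likelihood test, Benjamini-Hochberg adjustment over all genes tested). FOS, FOSB and EGR1 never passed the filter, and FOSL1 passed it only where PC3 was included. FOSL1 was high in PC3 alone and passed through that group, so only a higher level in PC3 could be called for it. Its calls are a description, and it enters the counts and medians of both PC3 comparisons below. With DHT against vehicle, 2 of 6 members tested were called higher (ATF3 and JUNB) and 0 lower, where 6.54% of all 11697 genes tested were higher and 7.49% lower. In PC3 against DHT-treated LNCaP, 1 of 7 was called higher (FOSL1; 24% of 12541 genes) and 2 lower (JUND and ATF3; 22.1%). In PC3 against vehicle-treated LNCaP, 3 of 7 were called higher (FOSL1, FOSL2 and JUNB; 22.2% of 12686 genes) and 0 lower (21%). DESeq2 gave the same counts in all 3 comparisons. In the first and last of them, where 0 were called lower, 1 member was lower at an unadjusted p under 0.05, MYC and JUND.

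By the adjusted p alone, 6 of the 6, 7 and 7 members tested passed in these comparisons. That share has little to tell, since 74.9%, 84% and 83.4% of all genes tested passed as well. The median log2 fold change of the members tested was 0.59, 0.37 and 0.79, against -0.01, 0.04 and 0.03 over all genes. The comparisons share libraries, each LNCaP group entering a pair of them, so their values stand side by side and are not independent of each other.

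**Figure D1:**
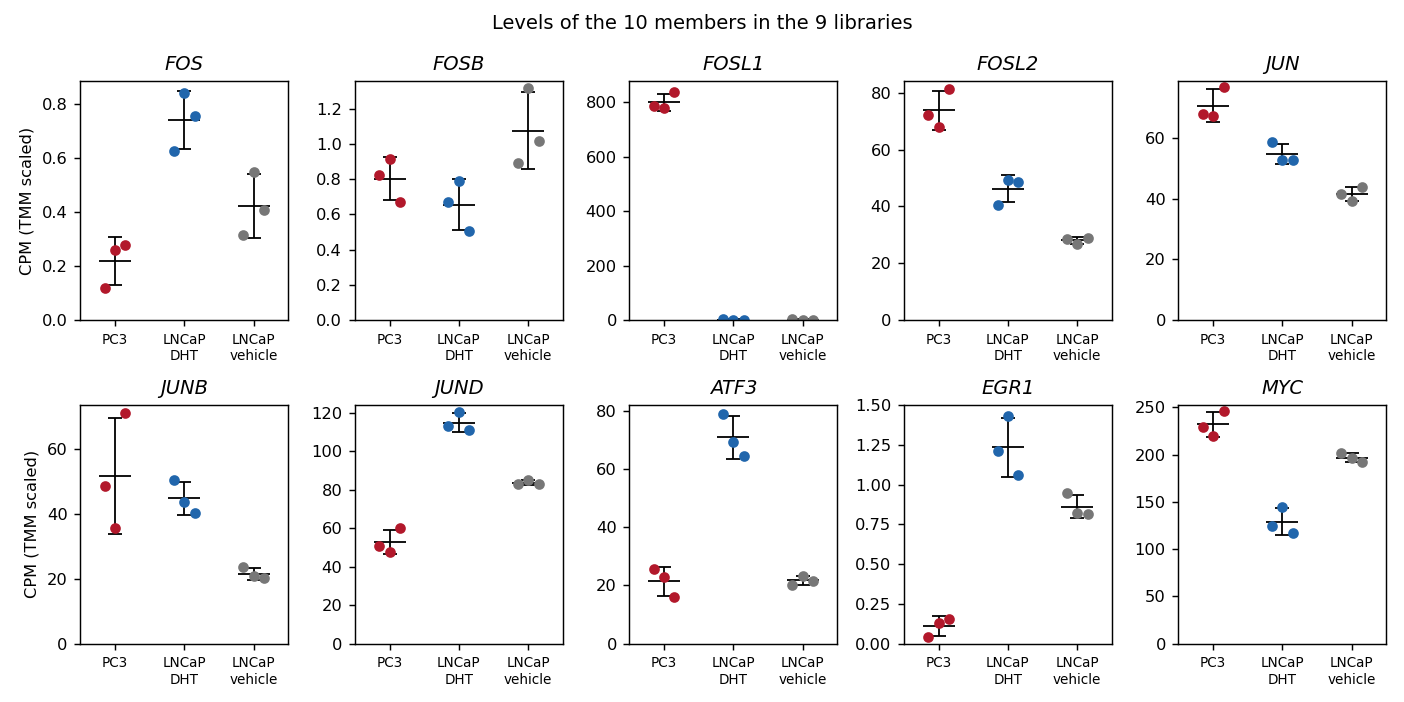
Level of each member in CPM (vertical axis, linear, each panel with its own scale from 0) in the 3 libraries of PC3, LNCaP with DHT and LNCaP with vehicle. Points are libraries, and the black bars are the mean and SD. FOSL1 lies between 780 and 836 CPM in PC3 and at or below 4.30 CPM in LNCaP, ATF3 stands apart in the DHT group, and FOS, FOSB and EGR1 stay below 1.5 CPM throughout.

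FOSL1 (chr11:65892049-65900573, minus strand) encodes FRA-1, a FOS protein without the transactivation domain of FOS. It was at 786, 780 and 836 CPM in PC3, at 4.30, 0.296 and 0 CPM with DHT and at 2.46, 0.110 and 0.254 CPM with vehicle. The PC3 libraries were high and close together, and the LNCaP libraries were at a trace or at nothing. The log2 fold change was 8.95 (SE 0.77, adjusted p = 1.17e-05) against DHT and 9.74 (SE 0.56, adjusted p = 1.39e-06) against vehicle. These sizes rest on the trace in LNCaP: without DHT replicate 1 the first was 12.26, and without vehicle replicate 1 the second was 11.97. Of the 74-base stretches of its transcript, 1.72% also occur elsewhere in the genome, and for the other members 0%.

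In LNCaP, most FOSL1 counts fell in the libraries numbered 1. Of 102 counts with DHT, 96 were in replicate 1, and of 54 with vehicle, 47 were in replicate 1. As a share of the mean PC3 level, FOSL1 was at 0.537%, 0.0370% and 0% with DHT and at 0.308%, 0.0137% and 0.0317% with vehicle. Some markers of PC3 moved with it: for CAV1, AXL, CD44 and EPHA2, 4 of the 7, both libraries numbered 1 likewise lay above the other 4. The caveolin gene CAV1 was at 0.776%, 0.188% and 0.0959% of its PC3 level with DHT, and at 0.321%, 0% and 0.0752% with vehicle. EPHA2 varied little, at 1.182%, 0.763% and 0.738% with DHT and at 1.08%, 0.901% and 0.945% with vehicle. VIM, CAV2 and ITGA3 did not show that order, and CAV2 was at 0.587%, 0.648% and 0.220% with DHT. The 7 PC3 markers summed to 42.8, 24.9 and 20.3 CPM with DHT and to 24.2, 16.3 and 17.9 CPM with vehicle, against 4256 to 4966 CPM in PC3. Of the 3 that could be tested between the LNCaP groups, 1 was called, VIM, higher with DHT (log2 fold change 1.86, adjusted p = 0.000447). VIM was at 3.93, 1.26 and 1.63 CPM with vehicle and passed the filter through DHT, so in effect only a rise could be called for it. Of the markers only CAV1 was at 0 in an LNCaP library, vehicle replicate 2. The part of PC3 RNA in the FOSL1 counts of LNCaP was not tested.

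**Figure D2:**
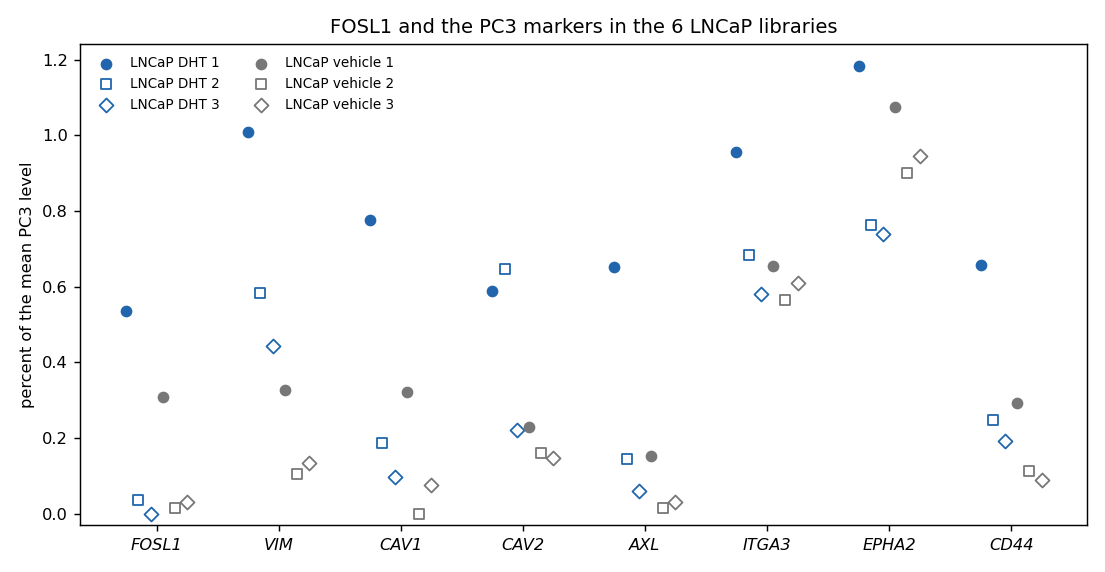
FOSL1 and the 7 PC3 markers in the 6 LNCaP libraries, each as percent of its mean level in PC3 (linear axis). Blue marks are DHT, grey marks vehicle, and filled circles the libraries numbered 1. The filled circles of FOSL1, at 0.537% and 0.308%, lie above the 4 open marks, at or below 0.0370%, and CAV1, AXL, CD44 and, with little spread, EPHA2 show the same order, while VIM, CAV2 and ITGA3 do not.

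FOSL2 encodes FRA-2, the other FOS protein of this kind. It was at 72.2, 67.9 and 81.5 CPM in PC3, at 40.7, 49.4 and 48.8 CPM with DHT and at 28.6, 26.8 and 28.9 CPM with vehicle. The 3 groups did not overlap, with vehicle lowest and PC3 highest. The difference was called for PC3 against vehicle (log2 fold change 1.42, SE 0.08, adjusted p = 1.33e-06). It stayed under the fold threshold for DHT against vehicle (0.72, adjusted p = 1.23e-06) and for PC3 against DHT (0.68, adjusted p = 0.000186). FOSL2 overlaps a gene without a symbol on its own strand and FOSL2-AS1 on the other, and the reverse strand held 0.570% of its counts.

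FOS and FOSB, the classical immediate early members of the family, were barely detected in any group. FOS had 3, 6 and 7 counts in PC3, 14, 17 and 15 with DHT and 6, 10 and 8 with vehicle. The counts with DHT were the highest of the 3 groups, and those of PC3 were at or near the floor of 3 counts. The ratio of the summed counts, scaled for depth, was 1.75 for DHT over vehicle, with an exact 95% interval of 1.05 to 3.00, and 3.39 (1.89 to 6.42) for DHT over PC3. FOSB had 21, 21 and 17 counts in PC3, 15, 16 and 10 with DHT and 17, 24 and 20 with vehicle, so that PC3 overlapped each LNCaP group. Its ratio was 1.63 (1.08 to 2.48) for vehicle over DHT. These intervals cover counting error only and say nothing of the spread between cultures.

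The make-up of FOS-family RNA differed between the lines. Per kilobase of transcript, which allows genes to be compared, the 4 FOS genes summed to 482 CPM per kb ± 19.3 (SD, n = 3) in PC3, 8.32 ± 0.670 with DHT and 5.23 ± 0.765 with vehicle. FOSL1 made up 97.5% to 97.8% of that sum in PC3. FOSL2 made up 66.9% to 93.6% of it with DHT and 69.9% to 87.6% with vehicle. The lowest share in both LNCaP groups was that of replicate 1, where FOSL1 took 27.9% with DHT and 23.7% with vehicle. FOS itself was at most 5.59% of the family in any library.

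**Figure D3:**
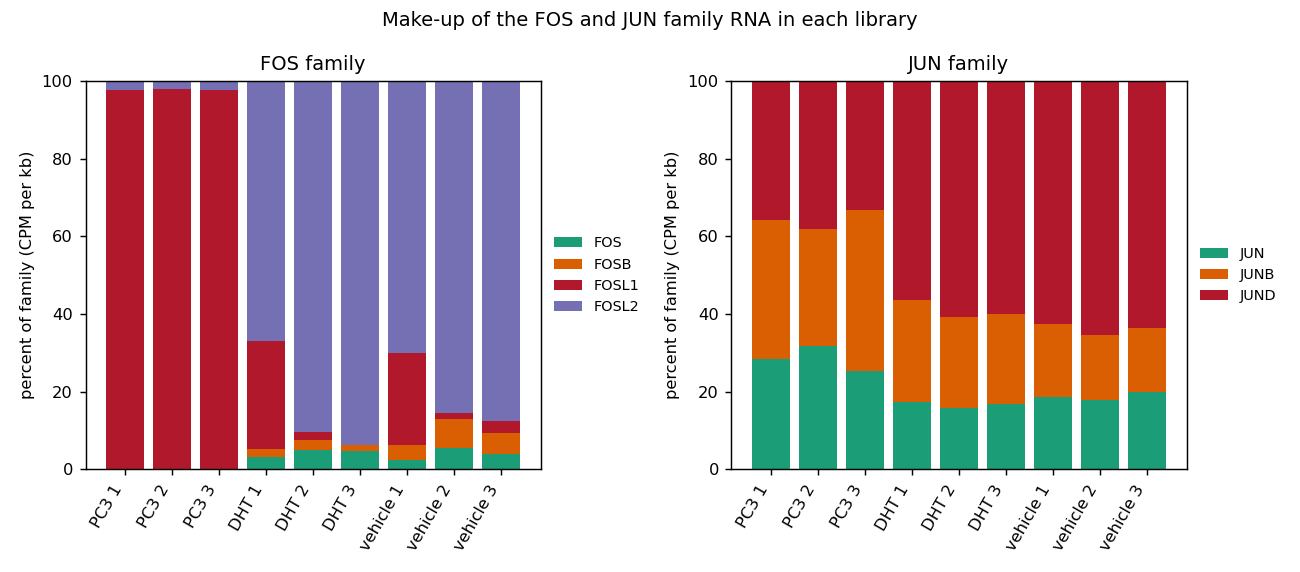
Share of each gene in the FOS-family sum (left) and in the JUN-family sum (right), in percent of CPM per kb, with a stacked bar for each of the 9 libraries (PC3, LNCaP with DHT, LNCaP with vehicle). FOSL1 fills 97.5% to 97.8% of the FOS family in PC3 and FOSL2 most of it in LNCaP, while JUND holds 33.3% to 38.2% of the JUN family in PC3 and 56.3% to 65.3% in LNCaP.

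The JUN genes were expressed in every library, at 20.2 CPM or more. JUND, which unlike its relatives is transcribed in resting cells, was at 50.7, 47.9 and 60.2 CPM in PC3, at 113, 121 and 111 CPM with DHT and at 82.9, 85.2 and 82.8 CPM with vehicle. PC3 was lowest and the DHT libraries highest, with no overlap. JUND was lower in PC3 than with DHT (log2 fold change -1.12, SE 0.09, adjusted p = 7.10e-06). Without PC3 replicate 1 or PC3 replicate 2 the difference was -0.97 or -0.93, under the fold threshold. Against vehicle it was -0.64 (adjusted p = 0.000180), and for DHT against vehicle 0.46 (adjusted p = 5.68e-07), both under that threshold.

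JUNB, an immediate early gene whose protein can oppose JUN, was at 48.6, 35.8 and 71.1 CPM in PC3, at 50.4, 43.7 and 40.3 CPM with DHT and at 23.5, 20.9 and 20.2 CPM with vehicle. The vehicle libraries were lowest, and the PC3 libraries spread across the whole range of the DHT libraries. JUNB rose with DHT, 2.09-fold (log2 fold change 1.06, SE 0.09, adjusted p = 1.96e-07), a value at the edge of the fold threshold: it was 0.97 without DHT replicate 1 and 0.998 without vehicle replicate 3. In PC3 it was 2.44-fold higher than with vehicle (log2 fold change 1.29, SE 0.23, adjusted p = 0.000945). Against DHT the log2 fold change of 0.21 (SE 0.23, adjusted p = 0.412) was within the spread between libraries.

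JUN, whose protein is activated by JNK, was at 68.0, 67.3 and 77.0 CPM in PC3, at 58.7, 53.0 and 52.8 CPM with DHT and at 41.5, 39.2 and 43.98 CPM with vehicle. The groups did not overlap and stood in the order of FOSL2. No comparison reached the fold threshold: log2 fold changes were 0.40 for DHT against vehicle (adjusted p = 5.87e-05), 0.37 for PC3 against DHT (0.00335) and 0.79 for PC3 against vehicle (2.74e-05). The second of these had an adjusted p of 0.0580 without DHT replicate 2 and of 0.0611 without DHT replicate 3.

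The 3 JUN genes together came to 77.5 CPM per kb ± 14.7 (SD, n = 3) in PC3, 101 ± 4.46 with DHT and 67.9 ± 0.615 with vehicle. Their make-up was more even in PC3, where JUND held 33.3% to 38.2%, JUNB 30.1% to 41.5% and JUN 25.2% to 31.8%. In LNCaP, JUND held 56.3% to 60.9% with DHT and 62.7% to 65.3% with vehicle. JUNB held more of the family with DHT (22.98% to 26.4%) than with vehicle (16.4% to 18.7%), with no overlap between the groups.

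ATF3, a stress-induced member of the ATF/CREB family that pairs with JUN proteins, showed the clearest change with DHT. It was at 78.9, 69.1 and 64.5 CPM with DHT, at 20.3, 23.4 and 21.5 CPM with vehicle and at 25.5, 22.9 and 16.0 CPM in PC3. The DHT libraries were all well above the others, while vehicle and PC3 overlapped. ATF3 rose 3.27-fold with DHT (log2 fold change 1.71, SE 0.08, adjusted p = 7.73e-10), and was called so under all 18 alternative settings. In PC3 it was 3.29-fold lower than with DHT (log2 fold change -1.72, SE 0.18, adjusted p = 4.03e-05). Against vehicle the log2 fold change was 0.01 (SE 0.17, adjusted p = 0.963), which does not show equal levels: without PC3 replicate 3 it was 0.27, with an adjusted p of 0.0172.

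**Figure D4:**
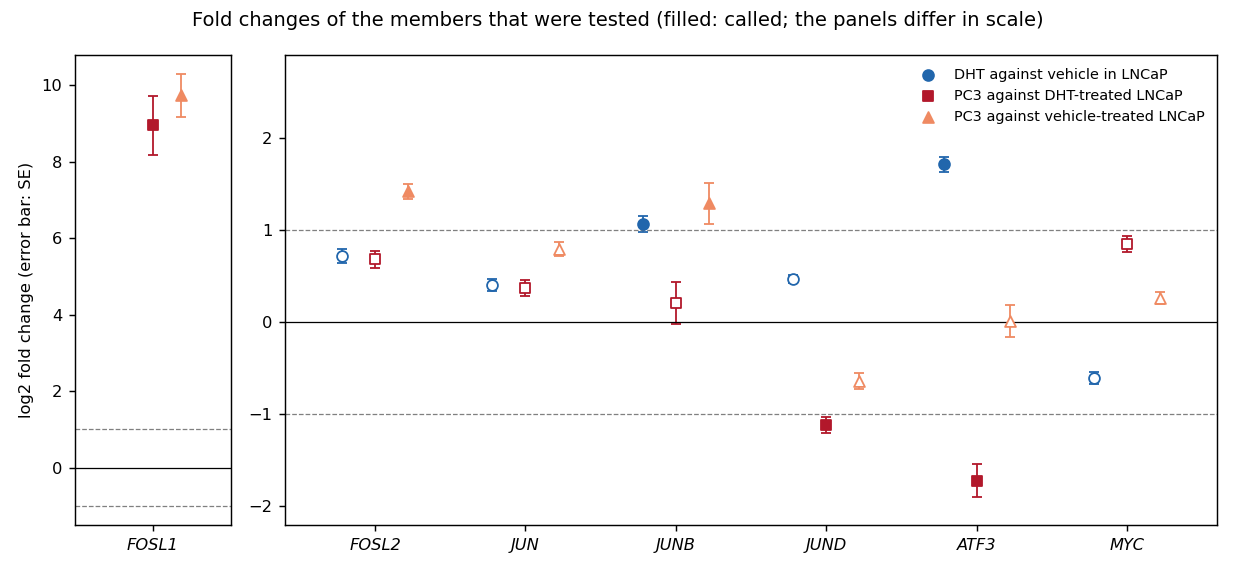
Log2 fold change (vertical axis, with SE as error bars) of each member that passed the filter in the 3 comparisons, FOSL1 on a scale of its own at left. Filled marks were called, and dashed lines mark a fold change of 2. With DHT, ATF3 (1.71) and JUNB (1.06) lie above the upper line and MYC (-0.61) is the only member below 0.

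EGR1, a zinc finger factor and serum-responsive immediate early gene, was close to the floor. It had 1, 3 and 4 counts in PC3, 27, 29 and 21 with DHT and 18, 15 and 16 with vehicle. PC3, the only group in serum that had not been stripped, was lowest. DHT was 11.4 times PC3 by summed counts (exact 95% interval 5.49 to 27.3) and vehicle 7.92 times (3.72 to 19.4), for counting error only. DHT over vehicle was 1.43 (0.990 to 2.10). When the filter was lifted, EGR1 was called lower in PC3 against DHT (log2 fold change -3.43, adjusted p = 2.85e-05) and vehicle (-2.89, adjusted p = 0.000223), and FOS against DHT (-1.72, adjusted p = 0.00265).

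MYC, a basic helix-loop-helix oncogene, was the only member tested whose mean was lower with DHT than with vehicle. It was at 125, 145 and 118 CPM with DHT, at 202, 197 and 192 CPM with vehicle and at 230, 220 and 246 CPM in PC3. The DHT libraries were lowest and the PC3 libraries highest, with no overlap. The log2 fold change was -0.61 for DHT against vehicle (SE 0.06, adjusted p = 1.53e-06), 0.85 for PC3 against DHT (SE 0.09, adjusted p = 3.85e-05) and 0.26 for PC3 against vehicle (SE 0.06, adjusted p = 0.00431). None was called, although the second reached 1.00 and was called without PC3 replicate 2. The third had an adjusted p between 0.0595 and 0.137 when any of the vehicle libraries was left out.

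Ranked per kilobase, FOSL1 stood first in PC3 at 470 CPM per kb ± 18.3 (SD, n = 3), ahead of MYC at 62.3 ± 3.55. JUNB, JUND and JUN followed at 28.3 ± 9.78, 27.4 ± 3.34 and 21.7 ± 1.66, and JUNB differed from neither by more than its spread. ATF3 (11.1 ± 2.54) and FOSL2 (11.0 ± 1.03) did not differ either. With DHT, JUND came first at 59.6 CPM per kb ± 2.55, then ATF3 (36.5 ± 3.78) and MYC (34.7 ± 3.81), which overlapped, then JUNB (24.5 ± 2.80) and JUN (16.8 ± 1.02). With vehicle, MYC came first at 52.9 CPM per kb ± 1.32, then JUND at 43.4 ± 0.695. JUN (12.8 ± 0.728) lay above JUNB (11.8 ± 0.958) by slightly more than either SD, and JUNB did not differ from ATF3 (11.2 ± 0.802) by more than its spread. EGR1, FOS and FOSB were below 0.4 CPM per kb in every group.

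Counts in the lists of related genes are to be read against the shares of all genes called: with DHT 6.54% were higher and 7.49% lower, and in PC3 24% were higher and 22.1% lower than with DHT and 22.2% and 21% than with vehicle. SGK1, MAFF, SPRY4, CXCL8 and CD68 were under 3 CPM in every vehicle library. In DHT against vehicle they passed the filter only through DHT, so only a rise could be called for them. Of 20 other immediate early genes, 12 were tested with DHT, and 6 rose and 3 fell (median log2 fold change 0.61, against -0.01 for all genes). SGK1, a kinase gene induced by steroids, rose from 1.37 to 16.1 CPM, KLF4 from 5.94 to 31.9, KLF6 from 8.22 to 31.4 and the nuclear receptor gene NR4A1 from 10.6 to 37.0 CPM. DUSP1, a phosphatase that switches off MAP kinases, rose as well (log2 fold change 1.03, adjusted p = 7.56e-07), while IER2 had a log2 fold change of -0.09 (adjusted p = 0.139). In PC3, 8 of 14 tested were higher and 4 lower than with DHT, and 9 higher and 1 lower than with vehicle. IER3 and CCN2 passed the filter only through PC3 in both comparisons, and SGK1 did so against vehicle. IER2 was at 346 CPM ± 87.4 (SD, n = 3) in PC3, 39.04 ± 1.15 with DHT and 41.5 ± 0.690 with vehicle, and IER3 at 215 CPM in PC3, 1.69 with DHT and 0.262 with vehicle. CCN2 was at 75.2, 0.267 and 0.0524 CPM in the same order, and KLF10 at 226 CPM in PC3 and 18.6 CPM with DHT. KLF6 was at 124 CPM in PC3. The antiproliferative gene BTG2 ran the other way, at 0.903 CPM in PC3, 20.7 with DHT and 59.7 with vehicle. NR4A1 and DUSP1 were lower in PC3 than with DHT (log2 fold changes -2.38 and -1.77), and against vehicle their values of -0.56 and -0.73 were not called.

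Among the nearest relatives of EGR1, EGR2 had 3, 11 and 15 counts in PC3 and 0 in the 6 LNCaP libraries, which allows up to 3 counts in each. EGR3 had at most 1 count in a library, and EGR4 had 0 in all 9. The EGR1 co-repressor genes NAB1 and NAB2 were both higher in PC3, at 36.6 and 27.7 CPM, than with DHT, at 7.96 and 6.27 CPM, or vehicle, at 12.3 and 6.58 CPM. Between the LNCaP groups 0 of these 2 were called by edgeR or DESeq2, and 1, lower with DHT, had an unadjusted p under 0.05.

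Of 11 other leucine zipper partners, which include the small MAF proteins, 8 were tested, and 3 of them were called with DHT, all higher (median 0.45). MAF, a MAF-family factor, rose from 4.31 CPM ± 0.274 (SD, n = 3) to 332 ± 19.8, MAFF from 1.06 to 7.17 and MAFK from 35.9 to 80.7. In PC3, MAF had 1 count over the 3 libraries. MAFF was at 41.8 CPM in PC3, above both LNCaP groups. JDP2, which dimerizes with JUN proteins, was at 7.05 CPM in PC3, 16.2 with DHT and 29.1 with vehicle. In all, 1 of 8 was higher and 3 lower in PC3 than with DHT (median 0.11), and 3 higher and 3 lower than with vehicle (median 0.56).

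Upstream of the members, 13 of 14 genes for ERK, JNK and p38 kinases and their activators were tested. With DHT 1 was called (median 0.09), MAP2K6, an activator of p38, which fell from 19.4 to 4.004 CPM. In PC3, 4 were higher and 4 lower than with DHT (median -0.48), and 1 higher and 2 lower than with vehicle (median -0.29). MAPK3, which encodes ERK1, was at 26.8 CPM in PC3, 74.7 with DHT and 59.9 with vehicle. MAP2K4, an activator of JNK, was at 45.8 CPM in PC3 and 133 with DHT, the JNK1 gene MAPK8 at 28.1 in PC3 and 61.8 with vehicle, RPS6KA5 at 37.8 in PC3 and 14.7 with DHT, and RPS6KA3 at 299 in PC3 and 84.5 with vehicle. Of serum response factor and its partners, 7 of 7 were tested, and ELK4 alone rose with DHT, from 112 to 280 CPM (median 0.10). ELK3 was higher in PC3, at 69.0 CPM, than with DHT (12.7) or vehicle (14.8). ELK4 was lower there than with DHT, at 81.6 CPM, and MRTFB lower than with vehicle, at 27.0 against 81.2 CPM, so that 1 was called in each direction in both comparisons (medians 0.44 and 0.70). SRF itself was at 77.2 CPM in PC3, 45.1 with DHT and 41.7 with vehicle, and was called in none.

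The 13 genes of negative feedback on the ERK pathway were tested in full where PC3 was included. In PC3, 12 were higher than with DHT (24% of all genes) and 13 higher than with vehicle (22.2%). Of these 13, at least 6 passed the filter only through PC3, where they were high, in either comparison. Against vehicle, SPRY4 and DUSP5 passed only through PC3 as well. These counts are therefore a description and no support. DUSP6, a phosphatase of ERK, was at 156 CPM ± 9.64 (SD, n = 3) in PC3 and 0.814 ± 0.0727 with DHT. PHLDA1 was at 699 CPM in PC3, 1.63 with DHT and 2.73 with vehicle, and the ETS genes ETV4 and ETV5 at 204 and 206 CPM in PC3 and at or below 1.03 CPM in both LNCaP groups. With DHT, 2 of 7 tested rose and 1 fell (median 0.42). ERRFI1, an inhibitor of the EGF receptor, rose from 44.03 to 875 CPM and SPRY4 from 0.366 to 5.39, against 438 CPM in PC3, while SPRY1 fell from 10.1 to 4.49 CPM.

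Of 15 known AP-1 target genes, 11 were tested against each LNCaP group and 11 were higher in PC3 (24% of all genes against DHT and 22.2% against vehicle). Of these 11, 7 passed the filter only through PC3 in both comparisons, and CXCL8 did so against vehicle. This count too is a description. PLAU, which encodes urokinase, was at 508 CPM ± 71.8 (SD, n = 3) in PC3, 1.08 ± 1.67 with DHT and 0.400 ± 0.566 with vehicle. The collagenase gene MMP1 was at 61.5 CPM in PC3 and had 4 counts in each LNCaP group, and TIMP1 and the adhesion receptor gene CD44 were at 139 and 341 CPM in PC3, with group means below 1.3 CPM in LNCaP. CD44 is also one of the PC3 markers above, and many genes outside these lists separate the lines. With DHT, 4 targets were tested and 1 rose (median -0.35): the chemokine gene CXCL8 was at 3.77 CPM ± 0.426 (SD, n = 3) with DHT, had 1 count over the 3 vehicle libraries, and was at 20.7 CPM in PC3.

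Of 6 stress genes that often move with ATF3, all tested, 0 were called with DHT by edgeR or by DESeq2 (median -0.02), while 4 had an unadjusted p under 0.05, 2 of them higher and 2 lower. These 4 also had an adjusted p under 0.05 and missed only the fold threshold: the log2 fold change was 0.86 for PPP1R15A (adjusted p = 9.31e-05), 0.68 for TRIB3 (1.89e-05), -0.57 for SESN2 (2.65e-05) and -0.41 for CHAC1 (0.000792). In PC3, 4 were higher than with either LNCaP group (medians 1.95 and 2.32): PPP1R15A was at 205 CPM in PC3, 8.16 with DHT and 4.52 with vehicle, CHAC1 at 188, 22.2 and 29.6, DDIT3 at 104, 26.6 and 26.1, and TRIB3 at 648 CPM ± 220 (SD, n = 3), 171 ± 18.5 and 107 ± 14.9. ATF3 itself was not higher in PC3 in either comparison.

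For MYC, the partner gene MAX was at 54.0 CPM with DHT and 52.8 with vehicle (log2 fold change 0.04, adjusted p = 0.488), and at 152 CPM in PC3, where it was called higher in both comparisons. Of 10 partners and relatives 9 were tested. With DHT, 2 rose and 1 fell (median 0.20): MYCL from 7.41 to 21.2 CPM and the MYC antagonist gene MXD1 from 8.90 to 21.0, while MXD3 fell from 16.3 to 6.04. In PC3, 1 was higher and 3 lower than with DHT (median -0.49), among them MYCL at 1.95 CPM, MLX at 51.2 against 155 and MXD4 at 56.1 against 126. Against vehicle 2 were higher, MAX and MXD1, and 1 lower, MYCL (median -0.69). Of 15 MYC target genes tested, 14 were not called with DHT (median -0.17), and ODC1, the rate-limiting enzyme of polyamine synthesis, rose from 732 CPM ± 9.01 (SD, n = 3) to 3375 ± 243. At an unadjusted p under 0.05, 9 of the 15 were lower and 2 higher with DHT. The share of all genes in each direction at that unadjusted p is not given here, and 74.9% had an adjusted p under 0.05 in either direction. The count of 9 is therefore no result about the list. In PC3, 4 were higher and 1 lower than with DHT (median 0.29), and 3 higher and 1 lower than with vehicle (median 0.38); the shares higher are near those of all genes, and the genes named here are single values that say nothing of the list. CAD was at 138 CPM in PC3 and 43.4 with DHT, BOP1 at 171 in PC3, 64.1 with DHT and 73.9 with vehicle, and MRTO4 at 113, 47.5 and 52.8. PPAN was at 16.2 CPM in PC3 and 7.85 with vehicle, while ODC1 was lower in PC3, at 1239 CPM, than with DHT, and FBL lower than with vehicle, at 115 against 243.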

How the data were processed

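The authors trimmed reads with cutadapt 4.1, aligned them with STAR 2.7.7a to hg38 and removed duplicates with UMI-tools 1.1.2, per the labels, although the study's supplement gives other versions of cutadapt and STAR. The annotation is not given in the sources used here. The deposited unit is raw counts per gene symbol, equal to the forward-strand counts of the aligner, in all 253944 values. Reads not on a gene, 20.3% to 25.4% per library, were left out. Counts were tested here with edgeR 4.0.16 (R 4.3.3), TMM factors and glmQLFTest, on the 6 libraries of each comparison, and the script was tested on simulated data. CPM in the text uses TMM factors over all 9 libraries. Lengths are those of GENCODE 44 canonical transcripts. The study's own test had a batch term, whose batches its text does not name, and it was left out. Same-numbered LNCaP libraries deviated together (correlations 0.556, 0.386 and 0.322 over 10261 genes), so the numbers pair them. The numbers did not pair PC3 with either LNCaP group: same-numbered libraries had correlations of -0.166 to 0.061, and differently numbered ones reached 0.168. Alternatives were DESeq2 1.42.0, the likelihood ratio test, a replicate block, other filters, call rules and strands, all libraries in one fit and leaving out each library. Intervals of low counts are exact, at 95%.

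All 10 members are named. Of the other lists (leucine zipper partners, immediate early genes, kinases, serum response factor partners, ERK feedback genes, AP-1 targets, EGR1 co-repressors, ATF3-linked stress genes, MYC partners, MYC targets and markers of LNCaP, PC3 and stromal or immune cells), up to 4 called genes with the largest fold change above 3 CPM are named, with EGR2, EGR3, NR4A1, IER2, DUSP1, SRF and MAX whatever their values. EGR4, HOXB13 and the repeats of named genes were added after their values were seen. The members and lists were chosen with earlier results of these data known. Values of some listed genes are not reported here.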

Additional observations from a re-analysis of the deposited data

How the results depend on the processing

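With all genes tested and no filter on low counts, 2941 genes were called for DHT against vehicle, 9147 for PC3 against DHT and 8713 for PC3 against vehicle, in place of 1641, 5773 and 5485. For the second, 5 members were called then in place of 3, the added ones being FOS and EGR1. By the adjusted p alone, 8763, 10530 and 10577 genes and 6 members in each comparison passed. The test against a fold change of 2 left 1 member with DHT, ATF3, and JUNB was lost (adjusted p = 0.791, and 0.103 for PC3 against vehicle), as was JUND for PC3 against DHT (0.0849). Leaving out each library in turn gave 1404 to 1551, 4633 to 5006 and 4361 to 4593 genes, and 1 to 2, 2 to 3 and 2 to 3 members. ATF3 in PC3 against vehicle, never called, changed sign: -0.0016 with DESeq2 size factors, -0.0015 with DESeq2, -0.015 with the replicate block, -0.016 with the block and the likelihood ratio test, -0.017 with all 9 libraries in one fit and -0.13 to 0.27 without single libraries. The replicate block, which follows the pairing of the LNCaP libraries, gave 1638, 5756 and 5495 genes and 2, 3 and 3 members, and changed no call of a member. Without both LNCaP libraries numbered 1, chosen after seeing the data, 2 members were called with DHT (JUNB 1.02, ATF3 1.56) and 1243 genes. Causes were not tested.

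FOSL1 could not be tested against vehicle without a PC3 library, nor with at least 10 counts in every library, since it missed those filters. FOS, FOSB and EGR1 are limited by depth, at no more than 29 counts in a library. RNA levels carry nothing on protein or its phosphorylation, and a sample 48 h after treatment does not show a brief early induction. The stromal and immune markers summed to 71.3 to 75.1 CPM in PC3, 28.8 to 34.1 with DHT and 22.9 to 25.5 with vehicle, mostly CD68 and COL1A1, with PTPRC at 0 in LNCaP. CD68 was called higher with DHT and in PC3 against vehicle, and COL1A1 in PC3 against DHT. The part of these RNAs in the results was not tested.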
